A study of Mus musculus with 8 samples.

Results

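Among the genes that Dp1Tyb mice carry in an extra copy on chromosome 16, 5 encode proteins that act on RNA or on ribosome assembly, namely Son, Scaf4, Paxbp1, Rbm11 and Urb1. They were examined together with Scaf8 and Srrm2, relatives on chromosome 17 that lie outside the duplication. The rule that took these 7 genes used names and chromosomal position and no measured values, from the 19493 mouse genes of the count table. Expression was measured by RNAseq in cultured fibroblasts from mouse embryos (MEFs), a connective tissue cell, in 4 wild-type (WT) libraries and 4 Dp1Tyb libraries. Dp1Tyb stands for Dp(16Lipi-Zbtb21)1TybEmcf, a tandem duplication from Lipi to Zbtb21 that models trisomy 21, so that Dp1Tyb cells hold 3 copies and WT cells 2 copies of each gene in between. Both groups came from E14.5 embryos whose strain background is labelled C57BL/6J.129P2 (a line backcrossed to C57BL/6JNimr, by the study's methods), and had synthetic RNA standards (ERCC spike-ins) added to a fixed number of cells at extraction. The comparison asks how far the extra gene copy shows in the RNA of these genes, either relative to all other RNA (relative normalisation) or per spike-in molecule (absolute normalisation).

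SON and SRRM2 are very large proteins of nuclear speckles, the bodies in which splicing factors collect, and both carry long stretches rich in serine and arginine (RS domains). SCAF4 and SCAF8 are paralogues that bind the phosphorylated C-terminal domain of RNA polymerase II and prevent transcripts from being ended too early. PAXBP1 resembles splicing-associated GC-rich sequence DNA-binding factors and bridges PAX3 and PAX7 to histone methylation enzymes, RBM11 is a tissue-restricted splicing regulator related to RBM7, and URB1 is a nucleolar protein needed for assembly of the large ribosomal subunit.

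The sequences of Son and Srrm2 show what these messages encode. The following 300 bases of Son exon 3 (chr16:91656662-91656961, plus strand, GRCm38, coding sequence of a GENCODE transcript) are shown because they hold 10 head-to-tail copies of a 30-base unit, with a core of 21 consecutive bases that is the same in all 10 copies in capitals.
Son repeat: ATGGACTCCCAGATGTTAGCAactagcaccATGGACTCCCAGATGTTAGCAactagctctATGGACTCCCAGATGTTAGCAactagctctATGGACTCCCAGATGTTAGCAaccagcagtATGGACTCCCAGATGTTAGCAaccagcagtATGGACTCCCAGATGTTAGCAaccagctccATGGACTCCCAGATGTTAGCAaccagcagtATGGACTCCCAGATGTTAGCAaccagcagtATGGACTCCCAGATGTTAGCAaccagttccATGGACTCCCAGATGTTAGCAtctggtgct

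The densest serine-arginine stretches of Son (chr16:91660007-91660096, plus strand, exon 3) and Srrm2 (chr17:23815983-23816072, plus strand, exon 11) are set beside each other as the feature shared by this pair, with serine and arginine codons in capitals.
Son: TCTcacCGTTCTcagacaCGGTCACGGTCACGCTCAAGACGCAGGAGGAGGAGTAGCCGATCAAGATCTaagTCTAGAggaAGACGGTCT
Srrm2: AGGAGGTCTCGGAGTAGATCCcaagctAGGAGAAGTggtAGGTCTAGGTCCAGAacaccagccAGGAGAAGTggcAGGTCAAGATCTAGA

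Serine and arginine codons made up 20.5% of the Son coding sequence and 39.7% of that of Srrm2, against 12.1% to 17.6% in the other 5 genes. The 90 bases in which Scaf4 (chr16:90245448-90245537, minus strand, exon 15) and Scaf8 (chr17:3187589-3187678, plus strand, exon 15) are most alike are shown because they bear on how well reads of the paralogues can be told apart, with the 17 bases that differ in capitals.
Scaf4: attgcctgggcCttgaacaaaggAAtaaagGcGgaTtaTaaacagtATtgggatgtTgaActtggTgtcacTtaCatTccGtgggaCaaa
Scaf8: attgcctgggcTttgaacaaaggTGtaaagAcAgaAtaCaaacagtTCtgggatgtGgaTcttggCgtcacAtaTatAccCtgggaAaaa

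These stretches agreed at 73 of 90 bases (81.1%). The search for them compared ungapped, in-frame coding windows within single exons, using the longest coding transcript of each gene. Between the same transcripts of Scaf4 and Scaf8, the longest shared run of bases was 15, and other annotated transcripts were not compared in this way. No window of 100 bases in Son, Scaf4, Rbm11 or Urb1 occurred in an annotated gene outside the 7. Windows shared on the same strand between members were not counted, so this search does not bear on Scaf4 against Scaf8. None of the windows of any of the 7 genes occurred more than once within a transcript, the Son repeat included. In Paxbp1, 18.1% of such windows were shared with 4930404I05Rik on the opposite strand, in Scaf8 3.28% with Gm9077 and Gm49797, and in Srrm2 0.596% with Gm16581. Exons of Paxbp1 and 4930404I05Rik overlapped over 1142 bases, or 20.7% of Paxbp1 exon length, but 4930404I05Rik held only 19 to 37 counts per library. Donson, on the strand opposite Son, shared 103 exon bases with it (0.691% of Son exon length), and Elob shared 4 bases with Srrm2. Sod1 overlaps the span of Scaf4 without sharing exon bases, and the microRNA gene Mir5125 lies in an intron of Srrm2.

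Each library held 17698900 to 26471758 counts, so that counting error was small for every member but Rbm11. Endogenous RNA per spike-in, given as the relative size factor divided by that from spike-ins, ran from 0.713 to 1.19 in WT and from 0.688 to 1.31 in Dp1Tyb libraries, and this spread within the groups enters every absolute value. In these bulk cultures, fewer cells of a type and less RNA per cell cannot be told apart. The fibroblast label was borne out by its markers, of which all 10 were present with a summed level of 22249 to 31759 CPM (counts scaled to a common library total) in WT and 26053 to 31554 CPM in Dp1Tyb libraries. Summed leukocyte markers were lower in all Dp1Tyb libraries, at 56.6 to 88.4 CPM against 102.0 to 126.9 CPM in WT (6 markers, Ptprc, Cd68, Adgre1, Csf1r, Itgam and Tyrobp). Summed neuron and glia markers (8 of 10, Elavl3 and Rbfox3 not analysed here) ran from 70.1 to 79.7 CPM in WT and from 53.6 to 80.5 CPM in Dp1Tyb, endothelial markers (5 of 5) from 34.0 to 56.4 and from 31.8 to 78.9 CPM, muscle markers (3 of 6, Myod1, Myf5 and Ckm not analysed here) from 8.93 to 27.3 and from 4.72 to 36.3 CPM, and epithelial markers (5 of 5) from 6.48 to 20.0 and from 4.87 to 14.7 CPM. The part of these other cells in the results below was not tested. Nothing in the labels ties libraries of a group to separate cultures, so p-values measure the spread between these libraries.

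Son, Scaf4 and Urb1 RNA was higher in each of the 4 Dp1Tyb libraries than in any WT library after relative normalisation, and Paxbp1 missed this by a narrow margin. The fold changes of Son, Scaf4 and Paxbp1 lay between 1.28 and 1.38, that of Urb1 was 1.77, and the 2-copy relatives Scaf8 and Srrm2 stayed near 1. No member passed an adjusted p of 0.05 in edgeR's quasi-likelihood test under either normalisation, and few genes did at all: 3 of 16470 tested genes (0.0182%) after relative and 2 (0.0121%) after absolute normalisation. At an unadjusted p under 0.05, 4 of the 5 duplicated members were higher after relative normalisation, against 287 of all tested genes (1.74%), and 1 of 5, Urb1, was higher after absolute normalisation, against 140 (0.85%). With replicate number as a block, Son (edgeR unadjusted p = 0.0316) and Scaf4 (0.0221) were also higher after absolute normalisation. The block raised all genes under 0.05, in either direction, from 192 to 499. Over all genes, every Dp1Tyb library lay above every WT library for 270 genes (1.64%) after relative and 47 (0.285%) after absolute normalisation. The members' counts of 4 and 3 of 5 stand beside 60 and 47 of the 112 tested genes of the duplication (53.6% and 42.0%), so that these counts do not set the 5 genes apart from their neighbours on chromosome 16.

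**Figure D1:**
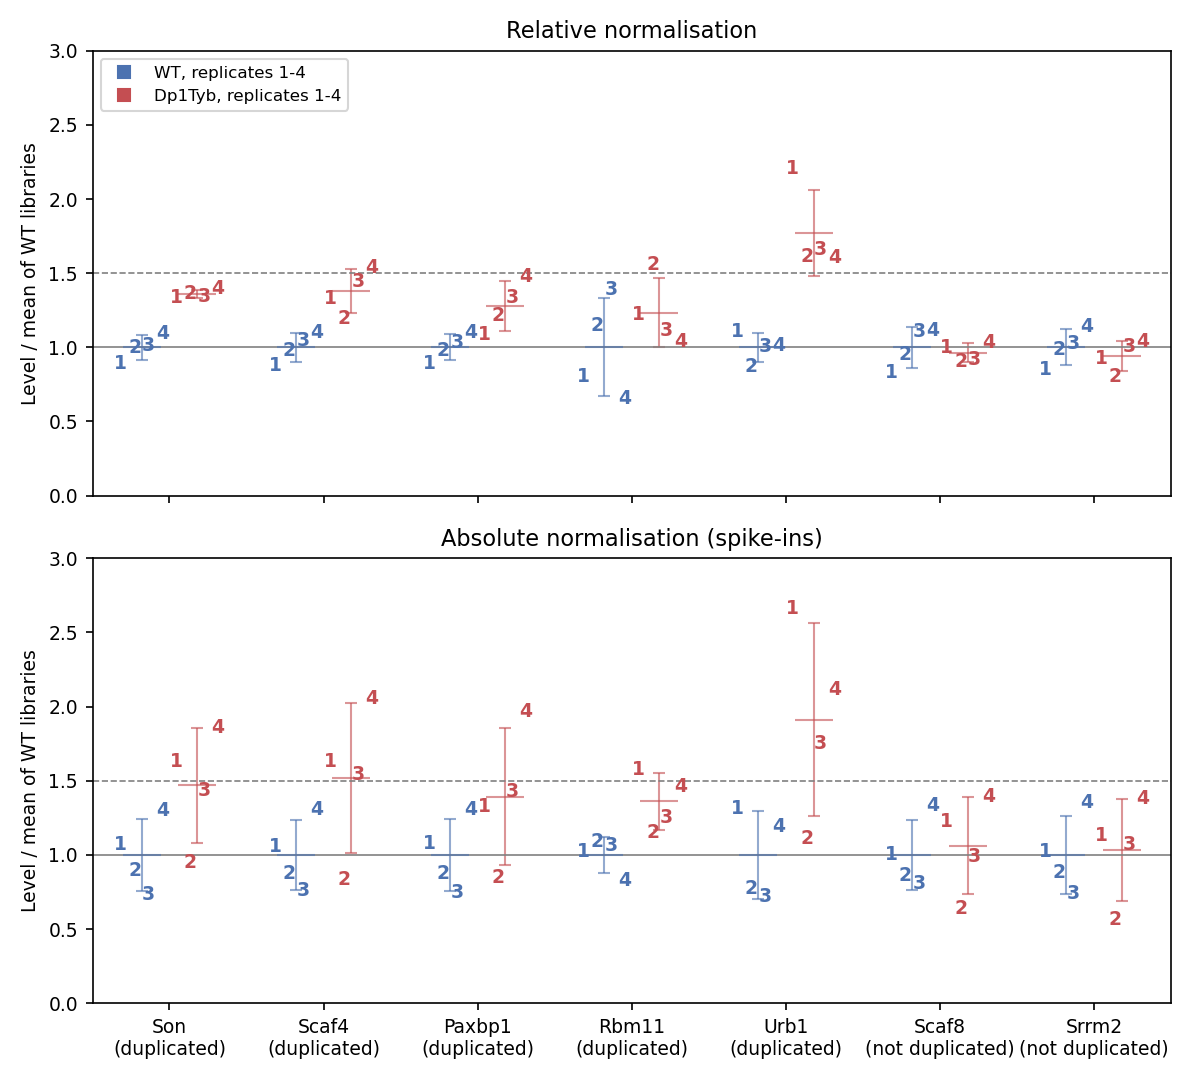
Level of each gene in each library divided by the mean of the 4 WT libraries (y axis, no unit), after relative normalisation (top) and absolute normalisation (bottom). Digits are replicate numbers, the horizontal bars with whiskers are means ± SD, the grey line marks 1 and the dashed line 1.5. After relative normalisation Son, Scaf4 and Urb1 do not overlap between the groups, while after absolute normalisation Dp1Tyb replicate 2 is the lowest Dp1Tyb library for all 7 genes.

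Son (ENSMUSG00000022961, chr16:91647506-91679221, plus strand) holds speckles together and is needed for the splicing of transcripts with weak splice sites. Relative levels of Son were 531, 598, 606 and 654 CPM in WT replicates 1 to 4 and 797, 814, 802 and 833 CPM in Dp1Tyb replicates 1 to 4. The 4 Dp1Tyb libraries were tightly grouped (812 ± 16.1 CPM, SD, n = 4) and all lay above the highest WT library (597 ± 50.8 CPM). The fitted difference was 1.36-fold (95% interval 1.16 to 1.59), a log2[fold change] of 0.44 with an SE of 0.10 (edgeR unadjusted p = 0.00145, adjusted p = 0.499). In DESeq2 run with default size factors, where 54 genes passed (0.328%), Son passed at an adjusted p of 0.00795. After absolute normalisation the counts were 13160.4, 11033, 9034 and 15988 in WT and 20059.5, 11701, 17638 and 22879.7 in Dp1Tyb, and Dp1Tyb replicate 2 fell inside the WT range. The absolute difference was 1.47-fold (95% interval 0.949 to 2.27), a log2[fold change] of 0.55 with an SE of 0.32 (edgeR adjusted p = 1.00). Donson, the replication fork protein gene beside it, was 9.21 ± 2.14 CPM in WT and 13.6 ± 2.56 CPM in Dp1Tyb (SD, n = 4), with a log2[fold change] of 0.56 (edgeR unadjusted p = 0.0179, adjusted p = 0.999).

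Srrm2, the 2-copy speckle gene (ENSMUSG00000039218, chr17:23790532-23824741, plus strand), measured 789.5, 913, 949 and 1061 CPM in WT and 858, 747, 931 and 962 CPM in Dp1Tyb. The groups overlapped, and the difference was 0.942-fold (95% interval 0.771 to 1.15), a log2[fold change] of -0.09 with an SE of 0.13 (edgeR unadjusted p = 0.523). In absolute terms it was 1.04-fold (95% interval 0.670 to 1.60), a log2[fold change] of 0.05 with an SE of 0.32. The relative interval of Srrm2 left out 1.5 and the absolute one did not.

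Within a library, scaling cancels when a pair of genes is divided, so Son was also read as counts per Srrm2 count. That ratio was 0.672, 0.656, 0.639 and 0.617 in WT and 0.929, 1.09, 0.861 and 0.866 in Dp1Tyb replicates 1 to 4. No Dp1Tyb library overlapped WT, with means of 0.937 ± 0.107 and 0.646 ± 0.0237 (SD, n = 4). The log2 difference was 0.53, a 1.44-fold higher ratio, with an exact two-sided permutation p of 0.0286, the smallest that the 70 assignments of libraries can give (adjusted over the 2 ratios tested, 0.0286). In Dp1Tyb replicate 2, the library with the highest ratio, Srrm2 was the lowest of all libraries, while Son was close to the other Dp1Tyb libraries, and without that library the log2 difference was 0.46, the lowest value when each library was left out in turn (highest 0.57).

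Scaf4 (ENSMUSG00000022983, chr16:90225680-90284503, minus strand), the anti-termination factor, measured 55.7, 62.2, 66.6 and 69.9 CPM in WT and 84.8, 76.0, 91.7 and 97.9 CPM in Dp1Tyb libraries. The lowest Dp1Tyb library, replicate 2, stayed above the highest WT library, replicate 4. Means were 63.6 ± 6.13 and 87.6 ± 9.41 CPM (SD, n = 4), and the fit gave 1.38-fold (95% interval 1.16 to 1.64), a log2[fold change] of 0.46 with an SE of 0.11. The unadjusted p was 0.00221 and the adjusted p 0.561 in edgeR, and 0.116 after adjustment in DESeq2. Absolute counts were 1381, 1148, 992 and 1708 in WT and 2133, 1092, 2017 and 2689 in Dp1Tyb, with the groups overlapping through Dp1Tyb replicate 2. The absolute difference was 1.52-fold (95% interval 0.986 to 2.33), a log2[fold change] of 0.60 with an SE of 0.32 (edgeR adjusted p = 1.00). Sod1, the superoxide dismutase gene whose span overlaps Scaf4, was 75.6 ± 13.0 CPM in WT and 126.4 ± 37.9 CPM in Dp1Tyb (log2[fold change] 0.74, edgeR unadjusted p = 0.00453, adjusted p = 0.857).

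Scaf8 (ENSMUSG00000046201, chr17:3114972-3198859, plus strand), the 2-copy paralogue, measured 94.4, 109, 126 and 127 CPM in WT and 114, 103, 105 and 118 CPM in Dp1Tyb, and all 4 Dp1Tyb values lay inside the WT range. The difference was 0.965-fold (95% interval 0.808 to 1.15), a log2[fold change] of -0.05 with an SE of 0.12 (edgeR unadjusted p = 0.664), and in absolute terms 1.06-fold (95% interval 0.691 to 1.63), a log2[fold change] of 0.09 with an SE of 0.32. The relative interval again left out 1.5.

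Scaf4 counts per Scaf8 count were 0.590, 0.572, 0.528 and 0.550 in WT and 0.745, 0.736, 0.874 and 0.829 in Dp1Tyb replicates 1 to 4. The groups did not overlap, at 0.560 ± 0.0267 in WT and 0.796 ± 0.0669 in Dp1Tyb (SD, n = 4). The log2 difference of 0.50 was a 1.42-fold higher ratio with an exact two-sided permutation p of 0.0286, again the smallest possible (adjusted 0.0286), and it stayed between 0.46 and 0.54 when any single library was left out. As a difference of medians the exact permutation p was 0.0571 for either ratio, and over replicate pairs the sign-flip p was 0.125, the smallest possible with 4 pairs. Every library of both groups held fewer Scaf4 than Scaf8 reads, by a smaller margin in Dp1Tyb.

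**Figure D2:**
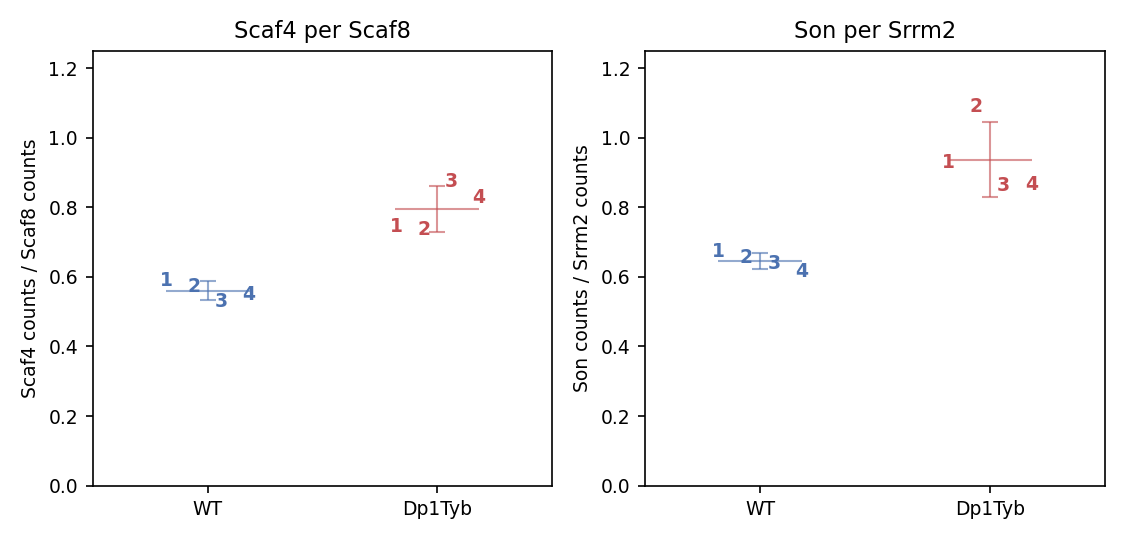
Counts of Scaf4 per count of Scaf8 (left) and of Son per count of Srrm2 (right) in each library (y axes, no unit, starting at 0). Digits are replicate numbers and bars with whiskers are means ± SD of 4 libraries. In both ratios every Dp1Tyb library lies above every WT library.

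Paxbp1 (ENSMUSG00000022974, chr16:91014037-91044543, minus strand) measured 53.0, 58.0, 61.6 and 65.3 CPM in WT and 64.5, 72.4, 79.6 and 87.9 CPM in Dp1Tyb. Dp1Tyb replicate 1 was just below WT replicate 4, and the other 3 Dp1Tyb libraries lay above all of WT. The difference was 1.28-fold (95% interval 1.06 to 1.54), a log2[fold change] of 0.35 with an SE of 0.12 (edgeR unadjusted p = 0.0138, adjusted p = 0.999). Per spike-in the counts were 1315, 1070.1, 918 and 1596 in WT and 1623, 1040.2, 1750.1 and 2412 in Dp1Tyb, an overlapping pair of groups that differed by 1.39-fold (95% interval 0.905 to 2.15), a log2[fold change] of 0.48 with an SE of 0.32.

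Rbm11 (ENSMUSG00000032940, chr16:75592844-75602829, plus strand) is known from brain and testis and was close to the detection limit here, with 8, 12, 13 and 6 counts in WT and 14, 12, 10 and 8 counts in Dp1Tyb libraries. Summed over libraries these were 39 counts in WT (exact Poisson 95% interval 27.7 to 53.3) and 44 in Dp1Tyb (32.0 to 59.1), intervals that cover counting error only and overlap widely. The fitted relative difference was 1.23-fold (95% interval 0.734 to 2.05), a log2[fold change] of 0.30 with an SE of 0.33 (edgeR unadjusted p = 0.395), so that neither 1 nor 1.5 could be told from it at this depth. Spike-in normalised counts were 8.86, 9.39, 9.18 and 7.12 in WT and 13.6, 9.95, 10.8 and 12.6 in Dp1Tyb. These groups did not overlap, the only such case among the members after absolute normalisation, yet the fitted difference of 1.35-fold (95% interval 0.618 to 2.94), a log2[fold change] of 0.43 with an SE of 0.57, had an unadjusted p of 0.453 in edgeR. It is the member nearest to an end of the duplication, 0.0523 Mb inside the end set by the annotated Lipi gene.

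Urb1 (ENSMUSG00000039929, chr16:90751527-90810413, minus strand), the ribosome assembly gene, showed the largest difference of the 7. It measured 28.5, 22.5, 26.0 and 26.2 CPM in WT and 56.8, 41.6, 42.8 and 41.4 CPM in Dp1Tyb. Dp1Tyb replicate 1 stood above the other 3, which agreed closely with each other, and all 4 were above WT (25.8 ± 2.48 against 45.7 ± 7.46 CPM, SD, n = 4). The difference was 1.77-fold (95% interval 1.44 to 2.18), a log2[fold change] of 0.83 with an SE of 0.14 (edgeR unadjusted p = 0.000120, adjusted p = 0.164). Without Dp1Tyb replicate 1 it was 1.63-fold. DESeq2 called Urb1 at an adjusted p of 0.000100. Spike-in normalised counts were 707, 415, 388 and 639 in WT and 1429, 598, 942 and 1137 in Dp1Tyb, where Dp1Tyb replicate 2 again fell among the WT libraries. The absolute difference was 1.91-fold (95% interval 1.23 to 2.98), a log2[fold change] of 0.94 with an SE of 0.33 (edgeR unadjusted p = 0.00406, adjusted p = 1.00). With spike-in size factors DESeq2 called 2 genes (0.0121%), none of them a member.

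**Figure D3:**
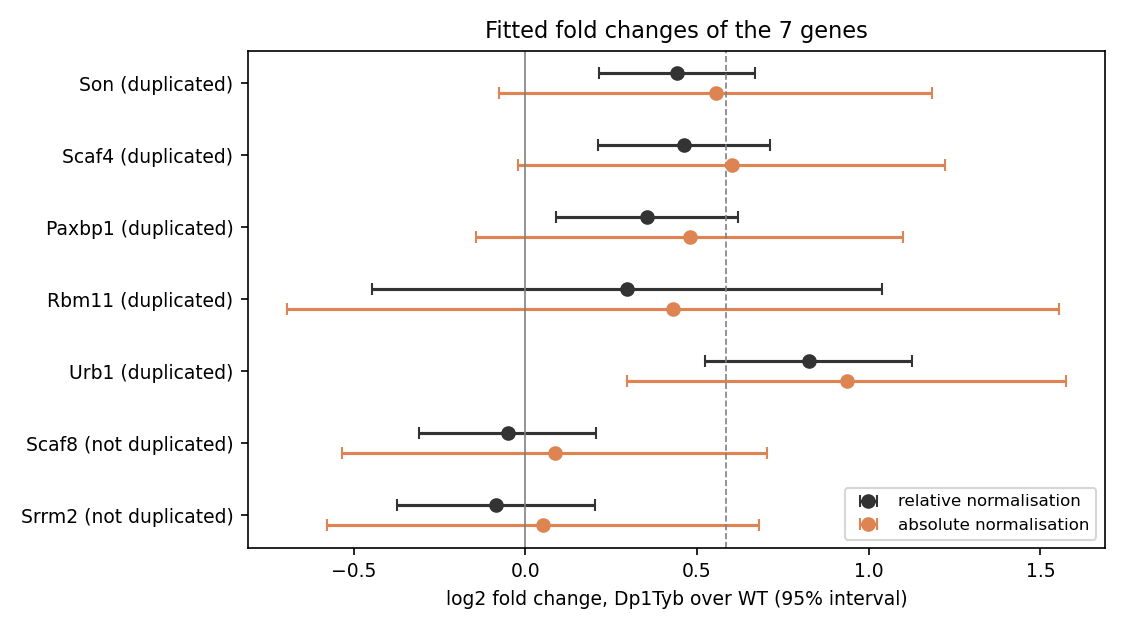
Fitted log2[fold change] of Dp1Tyb over WT for each gene (x axis) with its 95% interval, after relative normalisation (dark) and absolute normalisation (orange). The solid line marks no difference and the dashed line 1.5-fold. All 5 duplicated genes have intervals that include 1.5-fold under both normalisations, and the relative intervals of Scaf8 and Srrm2 end below it.

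Every interval of a duplicated member included 1.5, the ratio of gene copies, under both normalisations. After relative normalisation this changed under some alternatives, since the interval of Paxbp1 ended below 1.5 with a replicate block (1.12 to 1.45), with upper-quartile factors (1.03 to 1.49), without WT replicate 1 (1.02 to 1.499) and without Dp1Tyb replicate 4 (1.00 to 1.47), and that of Urb1 began just above it with the block (1.507 to 2.06). The relative intervals left out 1 for Son, Scaf4, Paxbp1 and Urb1, whereas the wider absolute ones left it out for Urb1 only. The absolute intervals of Son and Scaf4 also left out 1 with the block (from 1.03 and 1.06), without WT replicate 4 (from 1.02 and 1.05) and without Dp1Tyb replicate 2 (from 1.11 and 1.19), and that of Paxbp1 without Dp1Tyb replicate 2 (from 1.07). The choice of normalisation shifted all genes together, with a median log2[fold change] over all tested genes of 0.01 after relative and 0.11 after absolute normalisation. The order of the members was the same under both, and Scaf8 and Srrm2, close to 0, were below it after relative and above it after absolute normalisation. Against the 112 tested genes of the duplication, whose median was 0.54 (interquartile range 0.25 to 0.71) after relative normalisation, Urb1 ranked 12 from the top, Scaf4 63, Son 67, Paxbp1 78 and Rbm11 81. After absolute normalisation, with a median of 0.65, the ranks were 11, 63, 71, 76 and 81. Son and Scaf4 therefore sat a little below the middle of their neighbours and Urb1 in the upper part. Paxbp1 and Rbm11 lay further down, but still within the interquartile range.

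The proportions of the duplicated members to Son are given here without a test. Scaf4 counts per Son count averaged 0.106 ± 0.00258 in WT and 0.108 ± 0.0108 in Dp1Tyb, Paxbp1 per Son 0.0996 ± 0.00190 and 0.0936 ± 0.0109, and Urb1 per Son 0.0436 ± 0.00712 and 0.0564 ± 0.0100 (SD, n = 4). The quotient of the means was 1.29 for Urb1, 1.18 without Dp1Tyb replicate 1 (left out after seeing the data), and 1.01 for Scaf4 and 0.940 for Paxbp1. The groups overlapped for Urb1 per Son, since Dp1Tyb replicates 2 to 4 (0.0511, 0.0534 and 0.0497) lay below WT replicate 1 (0.0537), and Scaf4 and Paxbp1 per Son varied more between Dp1Tyb than between WT libraries.

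Libraries left a mark on several genes at once. After relative normalisation WT replicate 1 was the lowest WT library for 5 of the 7 genes and replicate 4 the highest for 5, and Dp1Tyb replicate 4 was the highest of its group for 5. After absolute normalisation Dp1Tyb replicate 2 was lowest for 7 of 7 and WT replicate 3 for 6 of 7, which are the libraries with the least endogenous RNA per spike-in in their groups (0.688 and 0.713).

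Levels were also expressed per kilobase of annotated exon after relative normalisation (RPKM). Their order over all 8 libraries was Srrm2 (70.2 ± 7.82 RPKM, SD), Son (47.3 ± 8.03), Scaf8 (19.0 ± 1.93), Scaf4 (13.6 ± 2.67), Paxbp1 (12.3 ± 2.09), Urb1 (4.36 ± 1.44) and Rbm11 (0.180 ± 0.0470). The ranges of Scaf4 and Paxbp1 overlapped within both groups, yet Scaf4 was above Paxbp1 in every library. Over the longest coding transcript, Paxbp1 was above Scaf4 in WT replicate 1 (13.3 against 13.1 RPKM) and in some other libraries. The order of these genes therefore depends on the length used. Scaf8 and Scaf4 overlapped in Dp1Tyb but not in WT. The other neighbours in the order did not overlap in either group, with the widest step, 24.3-fold, between Urb1 and Rbm11. Son levels were 35.6, 40.1, 40.7 and 43.9 RPKM in WT and 53.5, 54.6, 53.8 and 55.9 RPKM in Dp1Tyb, and stayed below those of Srrm2 in the same library, 61.5, 71.1, 73.9 and 82.6 and 66.8, 58.2, 72.5 and 74.9 RPKM. Over the length of the longest coding transcript, a choice added after seeing the data, Son and Srrm2 overlapped in Dp1Tyb, with Son above Srrm2 in replicate 2 (93.3 against 84.3 RPKM), so that their order depends on the length used.

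**Figure D4:**
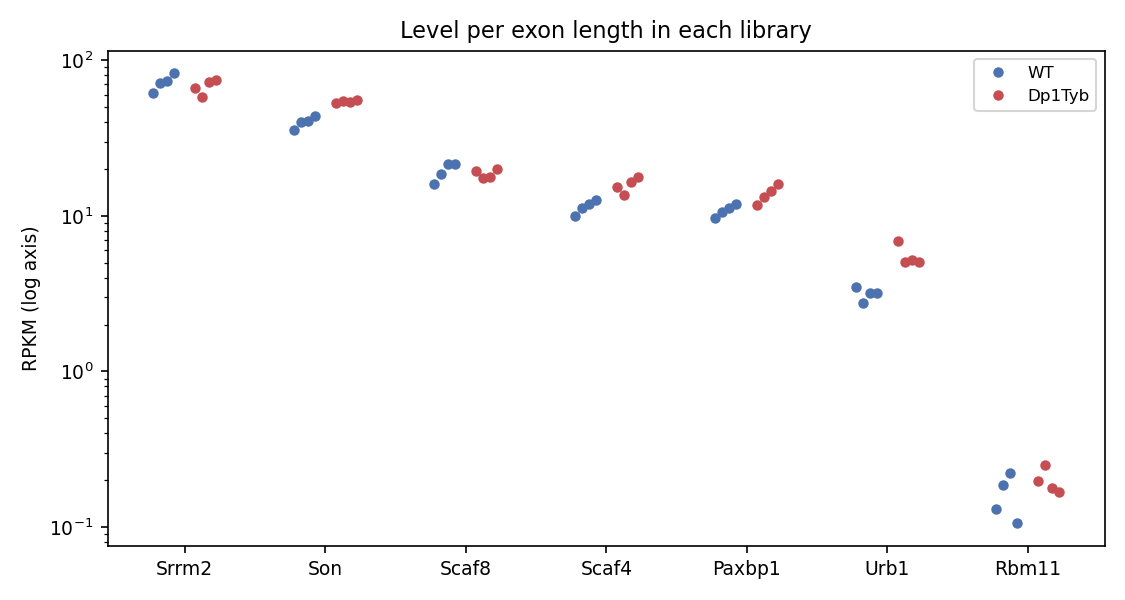
Level of each gene per length of annotated exon in each library, in RPKM on a log axis, with genes ordered by their mean over all 8 libraries. Blue points are the 4 WT and red points the 4 Dp1Tyb libraries, in the order of replicates 1 to 4. Srrm2 and Son are highest, and Rbm11 lies below 1 RPKM in every library.

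Genes that work with the members were described from lists, by counts and medians with no list test, beside a median log2[fold change] of 0.01 over all genes after relative normalisation (0.11 after absolute normalisation). The genes of a list share the same 8 libraries, so their numbers above 0 do not count independent observations. A joint shift of a list was not tested. Of the 113 listed genes tested, 0 passed an adjusted p of 0.05 under either normalisation in edgeR, DESeq2 or limma-voom, and 2 passed an unadjusted p of 0.05 after relative normalisation in edgeR, where 703 of all 16470 tested genes did (4.27%). Among 11 SR proteins, the serine- and arginine-rich splicing factors, 2 were above 0 and the median was -0.06 (absolute 0.04), from Srsf9 at 0.05 to the low-level Srsf12 at -0.42, and none passed an unadjusted p of 0.05. Of 23 tested nuclear speckle and SR-related genes, 9 were above 0 and the median was -0.03 (absolute 0.07), from the SR protein kinase gene Clk2 at 0.17 to the splicing factor gene Luc7l2 at -0.28. Luc7l2 measured 314 ± 20.2 CPM in WT and 259.8 ± 32.9 CPM in Dp1Tyb (SD, n = 4). It alone of the 23 passed an unadjusted p of 0.05, a share like that over all genes (edgeR unadjusted p = 0.0363, adjusted p = 0.999).

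The 24 genes of C-terminal domain binding and 3′ end processing, the setting of Scaf4 and Scaf8, had 14 above 0, a median of 0.01 (absolute 0.12) and none past an unadjusted p of 0.05. They ran from Cpsf3, the endonuclease of 3′ end cleavage, at 0.20 (53.1 ± 4.31 CPM in WT, 61.1 ± 3.07 CPM in Dp1Tyb) to Rprd2 at -0.11. For the 10 tested relatives and partners of Paxbp1, 6 were above 0 and the median was 0.01 (absolute 0.11), from the histone methylation subunit gene Rbbp5 at 0.09 to Pax3 at -0.55, and none passed an unadjusted p of 0.05. Pax3 varied between WT libraries from 0.806 to 8.83 CPM. For Rbm7, the nuclear exosome targeting complex and the RNA exosome, the setting of the Rbm11 relative, 12 of 13 tested genes were above 0 with a median of 0.09 (absolute 0.15), from Exosc5 at 0.22 to Zcchc8 just below 0, none of them past an unadjusted p of 0.05.

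The largest list median was that of Urb1 partners and large ribosomal subunit assembly, at 0.11 (absolute 0.22), with 28 of 32 genes above 0. The highest was the RNA helicase gene Ddx24 at 0.27, with 130.5 ± 6.67 CPM in WT and 157.7 ± 11.9 CPM in Dp1Tyb (SD, n = 4), and the lowest was Nvl at -0.04. Ddx24 alone of the 32 passed an unadjusted p of 0.05, again a share no higher than the 4.27% over all genes (edgeR unadjusted p = 0.0139, adjusted p = 0.999). Urb1 itself, at 0.83, was well above each of these genes.

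Likeness of pattern was measured as Pearson's r of log2 relative CPM over the 8 libraries, among 10995 genes that averaged 100 counts or more, as a description in which all points share library and genotype. Gopc (0.984), Endod1 (0.980) and the duplicated Cbr3 (0.978) came closest to Son. For Scaf4 these were Tiam1 (0.976), Cog1 (0.947) and D16Ertd472e (0.943), of which Tiam1 and D16Ertd472e are duplicated. Those of Paxbp1 were Med27 (0.961), Fam160a1 (0.953) and Dda1 (0.951), none of them duplicated. Urb1 was most like Acp6 (0.985) and the duplicated genes Synj1 (0.972) and Usp25 (0.970). Scaf8 was followed by Lef1 (0.977), Slc12a2 (0.975) and Wac (0.965), and Srrm2 by Erf (0.985), Raver1 (0.982) and Nacc1 (0.972), all outside the duplication.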

How the data were processed

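The 4 WT and 4 Dp1Tyb RNAseq libraries of MEFs were made with a stranded mRNA kit. The authors trimmed reads (Trim Galore), mapped them with TopHat2 2.0.12 to GRCm38 with spike-in sequences added, discarded multialigned reads and counted reads per gene with HTSeq. The gene annotation and the strand setting are not given in the sources used here, so reads of overlapping genes on opposite strands may not be separated. The deposited raw counts per gene were used as they stood. A deposited table of normalised counts and one of the authors' DESeq2 comparison (fold changes and p-values) were not used.

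Counts of 16470 of 19493 genes that passed filterByExpr were fitted with edgeR 4.0.16 (glmQLFit, R 4.3.3), genotype alone, with TMM factors (relative) or the median of ratios over 63 spike-ins (absolute), and p-values were adjusted by Benjamini-Hochberg over all tested genes. Intervals are 95% per gene and unadjusted. DESeq2 1.42.0 and limma-voom (limma 3.58.1) were alternatives, beside a filter, a replicate block and leaving out each library. Ratios of genes used a pseudocount of 0.5 and an exact permutation test. Replicates of a group differed by more than sampling noise (chi-square per degree of freedom 9.54 to 86.9). Exon lengths, positions and sequences came from GENCODE M21 (GRCm38), matched by gene ID. Of these steps, only the edgeR fits under both normalisations were tested on simulated counts.

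All 7 members were named in every library. Beyond them, the text names overlapping genes, the highest and lowest gene of each list, markers and the 3 most alike genes per member that averaged 100 counts or more. The rule for the members used no measured value, but members and lists were proposed with earlier results of these data known.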

Additional observations from a re-analysis of the deposited data

Results flagged for a closer look

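In Dp1Tyb replicate 1, Urb1 stood apart from the other Dp1Tyb libraries at 56.8 CPM, where the nearest was 42.8 CPM, a gap of 0.910 of the group's range against a critical value of 0.829 (Dixon's test at 95%). It was the 1 such case in 32 groups of 4 values checked, and chance alone would single out about 1 group in 20. The library had the most counts of all (26471758), and the part of depth was not tested.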

How the results depend on the processing

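Among genes called at an adjusted p under 0.05, the count after absolute normalisation was 2, and it was 7 with limma-voom, 0 with at least 10 counts required in every library, 9 with a replicate block and 2 to 8 when single libraries were left out (8 without Dp1Tyb replicate 2, 6 without WT replicate 1 or Dp1Tyb replicate 4 and 4 without Dp1Tyb replicate 1). After relative normalisation it was 3, and it was 54 with DESeq2, 5 with limma-voom, 0 with that filter, 7 with the replicate block and 1 whichever single library was left out. Under DESeq2 the log2[fold change] of Son was 0.45 and that of Urb1 0.83, both then called, and no other alternative called a member. Only Scaf8 and Srrm2, with values near 0, changed sign. Scaf8 ran from -0.07 to 0.28 (absolute, -0.01 without WT replicate 3 and -0.0675 without Dp1Tyb replicate 4) and from -0.13 to 0.01 (relative, 0.0079 without WT replicate 3 and 0.0071 without WT replicate 4). Srrm2 ran from -0.11 to 0.26 (absolute, -0.01, -0.07 and -0.11 without WT replicate 2, WT replicate 3 and Dp1Tyb replicate 4). The Scaf4 to Scaf8 and Son to Srrm2 log2 differences were 0.49 and 0.47 as differences of medians (exact permutation p = 0.0571 each), 0.46 to 0.54 and 0.46 to 0.57 without single libraries, and 0.50 and 0.53 over replicate pairs (sign flips, exact p = 0.125, the smallest possible). The causes were not tested. The labels do not say that a replicate number marks a shared litter or day, and libraries were not treated as pairs. Deviations of the same number correlated at 0.37, 0.52, 0.03 and 0.33, over 0.1 in 3 of 4 pairs, and 6 of 8 libraries correlated best with their own number, a hint of pairing from the data. The replicate block raised the genes at an unadjusted p under 0.05 from 703 to 1601 after relative and from 192 to 499 after absolute normalisation, and with it Urb1 had an adjusted p of 0.0535 (relative, edgeR). RPKM over the longest coding transcript, added after seeing the data, averaged 80.7 for Son and 101.7 for Srrm2 and let their Dp1Tyb ranges overlap. Rbm11 did not pass the stricter filter, and depth limits its values.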
